A study of Rattus norvegicus with 47 samples.

Results

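The Affymetrix RaGene array carries probe sets that the annotation places on the rat genome but gives no gene symbol. They were chosen by 2 conditions, an empty symbol and a filled chromosome, start and stop, and no measured value was used. There were 5514 of them among 27596 probe sets, or 20.0%. They are called unnamed probe sets here, and the other 21406 probe sets with a symbol are called named, of which 21016 have a position. A further 676 had neither symbol nor position and were not used. Positions are those of the annotation's rn5 build unless another build is named.

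The arrays measured RNA from the whole blood cell pellet of 8 male spontaneously hypertensive rats (SHR) aged 16 weeks, before and after a coated thread transiently blocked the middle cerebral artery (MCA). Blood was taken at 0 h, just before anesthesia, and at 1, 2, 3, 6 and 24 h post MCA occlusion, with 7 arrays at 6 h and 8 at every other time. All rats went through heparinised sampling, anesthesia and surgery, and no sham-operated or anesthesia-only rats were analysed here. Stroke, surgery, anesthesia and time of day therefore cannot be told apart. The thread was withdrawn, again under anesthesia, between the 1 and 2 h samples. Reperfusion and renewed anesthesia thus preceded every sample from 2 h on, and their part was not tested. Samples to 6 h came from the tail vein and the 24 h sample from the heart, just after an anesthetic overdose. Time, collection site and overdose therefore changed together at 24 h. Defining genes of red cells, neutrophils, platelets, B cells, T cells and monocytes (Hbb, S100a9, Pf4, Cd79b, Cd3e and Csf1r) lay at or above the 93.8th percentile of all probe sets at 0 h, and those of liver, heart muscle and astrocytes (Alb, Myh6 and Gfap) at or under the 56.5th.

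An unlabelled transcribed region on such an array can be several things. It may be an exon, an intron or an extended end of a known gene, a transcript from the opposite strand, a small RNA or pseudogene, or a segment of a gene cluster that annotation pipelines name poorly. The antigen receptor loci are such clusters: each holds many short variable segments, which B cells and T cells join to make immunoglobulins and T cell receptors. The introns of ribosomal protein and nucleolar protein genes often carry small nucleolar RNAs, which guide chemical modification of ribosomal RNA, and primary transcripts of microRNAs extend well beyond the mature RNA.

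No genome of the rn5 build was at hand, so the sequences of the unnamed probe sets themselves are not shown. Among the named neighbours are microRNA genes, and 100 unnamed probe sets lay within 50 kb of 1 of the 281 named microRNA probe sets, on either strand. The microRNAs below are shown because an unnamed probe set beside each passed the F-test and followed its profile (r of 0.9 or more). They were picked after the values were seen. Mature sequences are from RefSeq (GRCr8), 5′ to 3′, with the seed, bases 2 to 8, in capitals.
rno-miR-22-3p: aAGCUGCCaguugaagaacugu
rno-miR-221-3p: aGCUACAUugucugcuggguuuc
In GRCr8 the first comes from chr10:60805387-60805408 and the other from chrX:6023246-6023268, both on the plus strand. These positions cannot be compared with the rn5 positions of the probe sets. Their seeds differ.

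Probe set 10735889 (chr10:62013793-62015343, plus strand) starts 57 bases from the Mir22 probe set on the same strand. Its mean signal was 6.67 at 0 h, then 6.77, 6.91, 6.96 and 7.14 at 1, 2, 3 and 6 h, and 6.73 at 24 h, with SDs of 0.13 to 0.22. All signals are the authors' means of log2 RMA values, and the SDs are theirs. The mean rose at each step to 6 h and was back within 1 SD of 0 h at 24 h. The F-test over time gave an FDR of 0.000433, and the Mir22 probe set, with a change of 0.32 at 6 h, gave 0.000457 (r = 0.92). Probe set 10936660 (chrX:4496150-4496874, minus strand) lies 20747 bases from Mir221, on the other strand. Its mean went from 4.70 to 5.14, 5.33, 5.33 and 5.56 at 6 h and to 4.88 at 24 h (FDR 2.39e-11), and Mir221 changed by 1.29 at 6 h (r = 0.95). The array's microRNA probe sets sit on the precursor region, so neither value is a level of the mature microRNA. Of the 100 unnamed probe sets near a microRNA gene, 30 passed the F-test at FDR 0.05 and 5 had a p below 5e-07, against 55.5% and 13.5% of all probe sets, so calls were not more frequent there than elsewhere.

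The unnamed probe sets were dimmer and shorter than named ones. Their median signal at 0 h was 5.99 against 6.76, and 41.4% of them, against 20.5% of named ones, were among the 25% of all probe sets with the lowest signal. Their median span was 463 bases against 13326 bases, and 1570 of them (28.5%) covered under 200 bases, against 3.03% of named ones. The shortest ones had a median signal of 5.00. The brightest unnamed probe sets moved little, but their signals lay near the highest of any probe set on the array, 13.6, and whether signal was limited there was not tested. Probe set 10707301 on chromosome 1 had a mean of 13.41 at 0 h and stayed between 13.38 and 13.46, and 10734316 on chromosome 10 stayed between 13.28 and 13.37. Probe set 10706836, across the ferritin light chain gene Ftl1 on the other strand, went from 13.17 to 13.10 at 6 h. Of these top 5 by signal, 10855555 changed by at most 0.12 (FDR 0.0676), and 10903583 was the only one past the F-test, with a fall of 0.26 at 6 h from 13.21 (SE 0.04, FDR 5.98e-06).

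Over the time course, 2377 unnamed probe sets (43.1%) passed the moderated F-test at an FDR of 0.05, against 55.5% of all probe sets. The stricter threshold of the study, a p of 5e-07, was applied to the p-values computed here. It was passed by 3717 of all probe sets, more than the genes the paper lists, so the sets differ. Of the unnamed ones, 265 passed (4.81%, against 13.5% of all). Signal level moves with this gap. Among the dimmest 25% of all probe sets, 31.1% of unnamed and 31.0% of named probe sets passed at FDR 0.05. Among the brightest 25% the shares were 65.2% and 82.9%, and at p below 5e-07 they were 14.3% and 36.2%. The share of unnamed probe sets was lower than that of named ones in the bright class, and in the dim class it was close at FDR 0.05 but higher at p below 5e-07 (1.49% against 0.889%). The gap also differed by length. Under 200 bases, 36.2% of unnamed and 48.7% of named probe sets passed at FDR 0.05, and over 10000 bases 40.3% and 65.6%. From 1000 to 10000 bases the shares were 47.9% and 54.6%. The class of 200 to 1000 bases, which holds 48.4% of the unnamed ones, went the other way, with 46.0% and 41.7%. The differences between these shares were not tested.

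**Figure D1:**
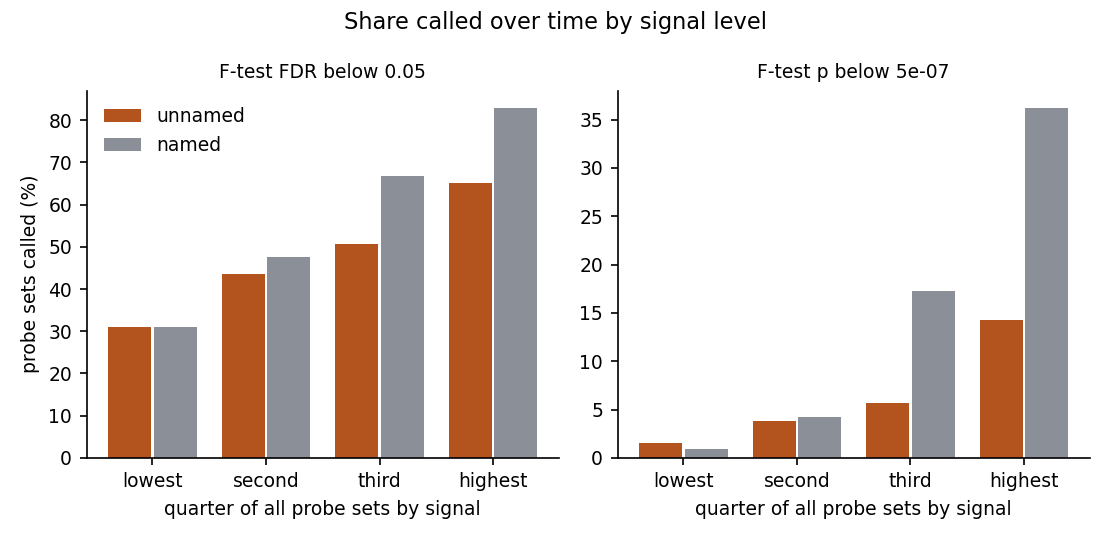
Percent of probe sets that passed the F-test over the 6 time points, in 4 equal classes of all probe sets by signal, for unnamed (brown) and named (grey) probe sets, at FDR 0.05 on the left and at p below 5e-07 on the right. The bars are level in the dimmest class (31.1% and 31.0% on the left) and apart in the brightest (65.2% and 82.9%).

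Against 0 h, 971 unnamed probe sets were higher and 477 lower at 1 h, or 17.6% and 8.65%, against 21.7% and 15.4% of all probe sets. The 2 h samples gave 1012 higher and 612 lower (background 21.7% and 18.6%), and the 3 h samples 1290 and 714 (27.3% and 19.2%). Next came 1066 higher and 707 lower for 6 h (22.5% and 19.3%), and 765 and 423 for 24 h (17.4% and 13.9%). In each of these counts the unnamed share lay below the background. The median change over all probe sets was 0.04 to 0.07 on the log2 scale in every later group. With each time point centred on its own median, the 1 h calls became 505 higher and 628 lower. Centring gave 708 and 699 for 2 h, 871 and 815 for 3 h, 768 and 782 for 6 h and 410 and 549 for 24 h. With quantile-normalized means the 3 h calls were 882 higher and 746 lower. Quantile normalization kept more higher than lower calls at every time point, while centring left more lower calls at 1, 6 and 24 h.

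**Figure D2:**
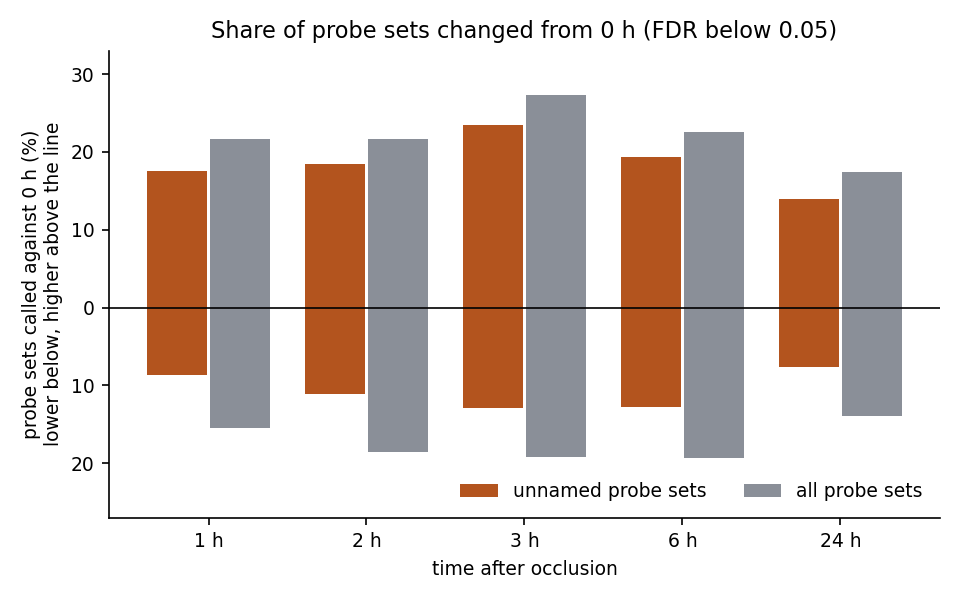
Percent of probe sets higher (above the line) or lower (below the line) than at 0 h at FDR 0.05, at 1, 2, 3, 6 and 24 h, for unnamed (brown) and all (grey) probe sets. The brown bars are the shorter in each pair, from 7.67% lower at 24 h to 23.4% higher at 3 h.

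Between neighbouring time points, the step from 6 to 24 h held the most calls, with 299 unnamed probe sets higher and 301 lower (background 10.2% and 8.68%). The step from 1 to 2 h held 119 and 118 (4.66% and 4.11%), that from 2 to 3 h 54 and 45 (1.90% and 1.62%) and that from 3 to 6 h 59 and 64 (2.34% and 2.44%). Among the 265 past 5e-07, 117 had a rise and 148 a fall as their largest change. The 6 h samples held that change in 112 of them, the 2 h samples in 68, the 3 h samples in 60, the 24 h samples in 16 and the 1 h samples in 9. Named probe sets past 5e-07 were much alike in direction, with 1462 rises and 1922 falls. Their largest change was at 6 h in 40.6%, against 42.3% of the unnamed ones. At 2 h the shares were 30.8% of named and 25.7% of unnamed ones, and at 3 h 17.2% and 22.6%. None of these shares was tested against another. The median size among the 265 was 0.70, 74 exceeded 1 on the log2 scale, and all 265 exceeded the highest SD of the probe set, 115 of them by over 3 times. At 24 h a median of 44.9% of the largest change was left, and 14 had moved to the other side of 0 h. Calls at 24 h and at no earlier time point were made for 126 unnamed probe sets, 85 higher and 41 lower (background 1.49% and 0.663%).

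The strongest unnamed signal by F-test lay within Mctp1, a gene for a membrane protein with C2 domains. Probe set 10812292 (chr2:3998424-3999237, plus strand) had means of 7.65 at 0 h and 8.55, 9.76, 9.34, 9.09 and 8.00 at 1, 2, 3, 6 and 24 h, with SDs of 0.15 to 0.37. The 2 h mean stood far above 0 h. The 24 h mean lay nearer to 0 h but was still called higher, by 0.35 (FDR 0.0262). The rise at 2 h was 2.11 (SE 0.12, 4.31-fold, FDR 3.81e-19), and that of the Mctp1 probe set over it was 0.89 (r = 0.94). A second unnamed probe set, 10820098, lies on the opposite strand of Mctp1 and rose by 1.47 at 2 h (r = 0.97 with Mctp1).

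Several of the strongest unnamed probe sets lay across a named gene on the other strand. Probe set 10739913 (chr10:106612560-106612945, plus strand) overlaps Socs3, which encodes a feedback inhibitor of cytokine signalling. Its means were 7.70, 8.13, 8.92, 9.33, 9.35 and 7.97 in order of time, and those of Socs3 were 7.71, 8.03, 8.89, 9.45, 9.43 and 7.83. Both rose to 3 and 6 h and were close to the 0 h level at 24 h, and r was 1.00. The rise of 10739913 at 6 h was 1.65 (SE 0.12, FDR 6.19e-16). Pgs1, the nearest named probe set on its own strand, 18937 bases away, rose by less, 0.62 at 6 h, with r of 0.99. Probe set 10746968 (chr10:86510773-86521004, minus strand) overlaps Msl1, a subunit of a histone acetyltransferase complex. It rose by 1.08 at 6 h (SE 0.07, FDR 1.69e-17) while Msl1 rose by 1.52 (r = 0.99). The clock repressor Nr1d1, 23965 bases from it on its own strand, changed the opposite way, by -0.36 (r = -0.78).

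Falls were seen across genes as well. Probe set 10724047 (chr1:172379967-172382783, minus strand) overlaps Fchsd2 on the other strand and fell by 2.17 at 3 h, from 6.38 to 4.21 (SE 0.23, FDR 1.33e-10), while Fchsd2 fell by 1.27 (r = 0.96). Inside Mef2c, a transcription factor gene used by B cells among others, 10812357 (chr2:11617246-11617602, plus strand) had means of 6.92, 4.67, 4.42, 4.88, 5.36 and 6.43. It was low from 1 to 6 h and near its start at 24 h. Its fall of 2.50 at 2 h (SE 0.31, FDR 3.62e-09) was the largest among unnamed probe sets at that time, and its SDs, up to 0.96, were also wide. Mef2c itself fell by 1.13 (r = 0.93). Not every host gene moved with its unnamed probe set. Probe set 10801381, which spans 101 bases within the RNA-binding protein gene Rbm27 on chromosome 18, fell from 9.42 to 7.03 at 3 h, a change of -2.39 (SE 0.25, FDR 6.59e-11), while Rbm27 changed by -0.06 (r = 0.24). Probe set 10910762, which spans 68 bases within the ribosomal protein gene Rpl4, fell by 1.64 at 2 h, where Rpl4 changed by -0.13. It was still 1.30 below 0 h on the log2 scale at 24 h, where Rpl4 differed from 0 h by 0.04. Rpl4 did pass the F-test (FDR 0.000153), with a smaller change of -0.27 at 6 h (r = 0.40). Probe set 10802710, which spans 65 bases within Rpl17, was lowest at 3 h, with a change of -1.75, and still stood at -1.23 after 24 h, beside smaller changes of -0.46 and -0.23 for Rpl17, whose profile was alike (r = 0.88).

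**Figure D3:**
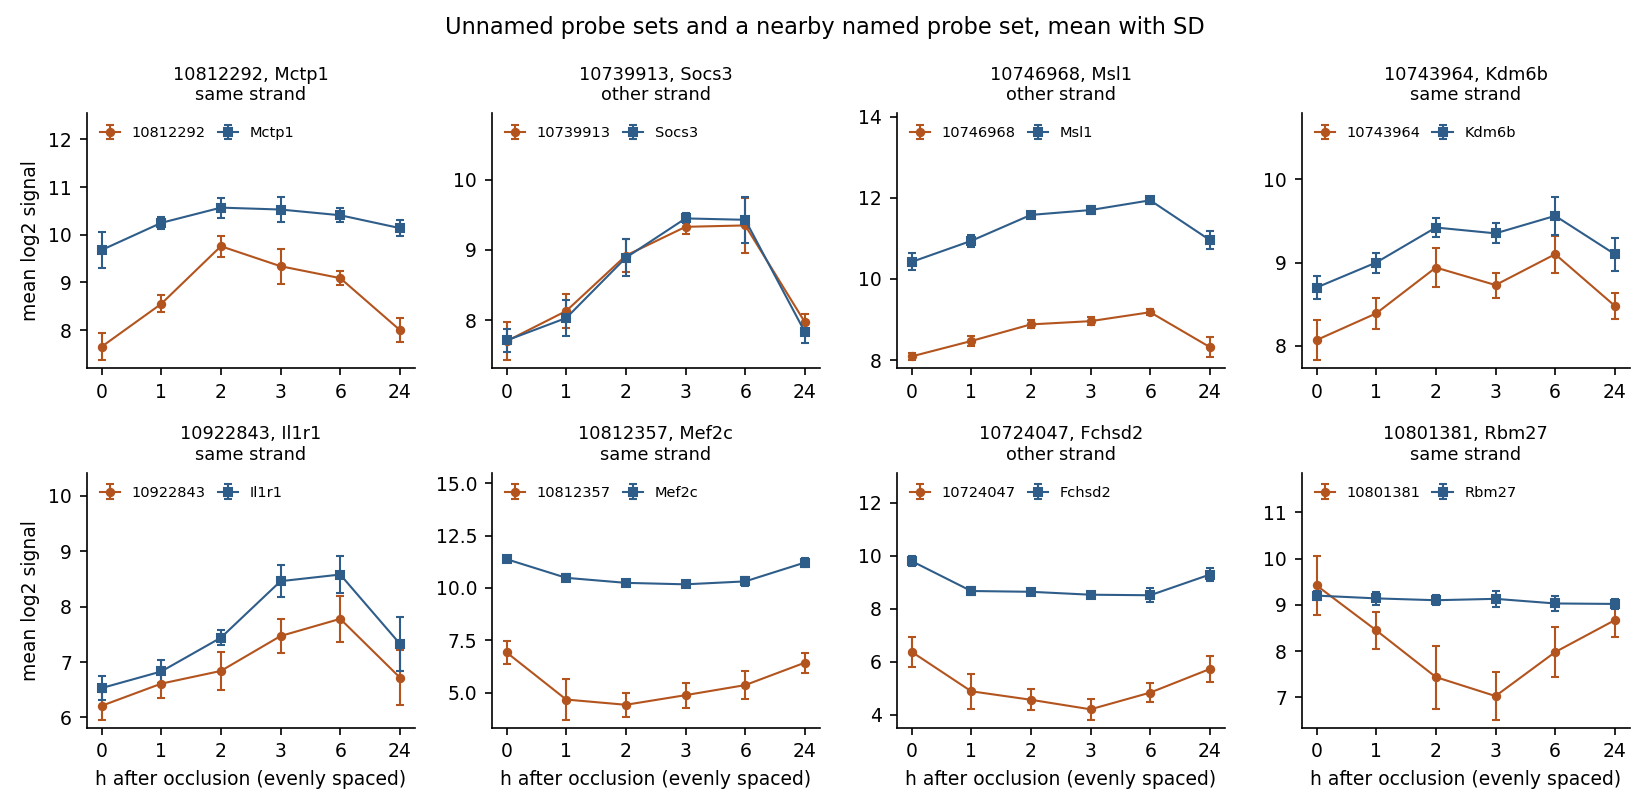
Mean log2 signal at 0, 1, 2, 3, 6 and 24 h (evenly spaced) of 8 unnamed probe sets (brown circles) and a named probe set over or near each (blue squares), with bars for the authors' SD over 7 or 8 arrays. The Socs3 pair lies on top of each other (7.70 and 7.71 at 0 h), the Mctp1 and Mef2c pairs share their shape at different levels, and Rbm27 stays flat (9.20 to 9.02) while 10801381 dips to 7.03.

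The largest rise of any probe set on the array, 3.87 at 6 h, was unnamed, but the largest named rise at 6 h was nearly equal, 3.85. Probe set 10837621 (chr3:84642926-84689096, plus strand) lies in a cluster of olfactory receptor genes. Its means were 7.02, 8.16, 8.56, 9.40, 10.89 and 9.10, and its SDs ran from 0.13 to 0.65. It climbed at every time point to 6 h, with a change of 3.87 there (SE 0.23, 14.6-fold, FDR 5.23e-19), and was still 2.08 above 0 h on the log2 scale at 24 h. The olfactory receptor genes around it, Olr684 and Olr681, changed by 0.05 and 0.13 at 6 h. Other strong risers were 10911811 (chr8:85129320-85129422, minus strand), up by 2.48 at 2 h from a mean of 5.90 (SE 0.17, FDR 9.98e-17), 10916804 (chr8:47358555-47359196, minus strand), up by 2.04 at 6 h from 8.99, and 10894616 (chr7:26939610-26939740, plus strand), up by 1.97 at 3 h from 7.65. The last lies across the sulfotransferase gene Chst11 on the other strand, which peaked later, at 1.58 at 6 h (r = 0.84). Probe set 10914042 on chromosome 8 rose by 1.48 at 2 h, and the nearest named probe set on its strand was 280962 bases away. Near the natural killer receptor gene Ncr1, 10718942 rose by 1.71 at 6 h, where Ncr1 changed by 0.34 (r = 0.69), and 10936365, near Zcchc12 on chromosome X, rose by 1.92 where Zcchc12 rose by 0.82 (r = 0.96). Probe set 10779940, up by 1.23 at 1 h and 1.66 at 2 h, lies across Rab2b on the other strand, which changed by -0.42 and -0.38.

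Some changes came late, at 6 or 24 h. Probe set 10795518 on chromosome 17 stayed between 4.23 and 4.40 to 3 h, then read 5.78 at 6 h and 5.49 at 24 h (changes of 1.55 and 1.26, SEs 0.39 and 0.37), with SDs up to 1.10. Of those called at 24 h alone, 10733674 rose by 0.70 (FDR 0.00471), and 10856086 fell by 1.11 (FDR 0.00894) and 10848956 by 1.05 (FDR 0.0213). Probe set 10798921 was 0.83 higher at 24 h (FDR 0.0214) but did not pass the F-test over time (FDR 0.158). The highest SDs of these 4 were 0.70 to 1.08, about as large as the changes themselves, and blood at 24 h came from the heart. Probe set 10856086 lies in an immunoglobulin kappa region of chromosome 4.

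On the same strand, an unnamed probe set shared its profile with a named one less often at larger distances. A pair was counted as similar if r over the 6 means was at least 0.9 and the largest changes had the same sign. Such an r is a description only, since it rests on 6 points and both probe sets of a pair were read on the same arrays. On the same strand, a named probe set overlapped 871 unnamed ones, lay up to 10 kb from 593 and 10 to 50 kb from 1254, and was farther from 2796. Among those past FDR 0.05, 79 of 405 overlapping pairs were similar (19.5%), 28 of 263 up to 10 kb (10.6%), 23 of 548 at 10 to 50 kb (4.20%) and 34 of 1161 beyond (2.93%). On the other strand, 58 of 440 overlapping pairs were similar (13.2%), and the shares without overlap, 3.45%, 3.99% and 4.53% from near to far, did not fall with distance. Overlapping pairs of differently named probe sets on 1 strand, measured the same way, were similar in 94 of 663 cases (14.2%), between the shares of the 2 kinds of overlapping unnamed pairs. Among the 265 past 5e-07, 25 of 61 overlapping pairs on the same strand (41.0%) and 23 of 57 on the other strand (40.4%) were similar, beside 47 of 178 overlapping named pairs (26.4%). These differences between shares were not tested. Of the 40 similar pairs past 5e-07 within 50 kb on the same strand, 10 lay in the antigen receptor loci. Probe sets there may read each other's transcripts. Probe sets 10779984 and 10780062, with equal positions and values, were counted as separate overlapping pairs. Counting either strand within 50 kb, 66 of the 265 had a similar named neighbour, and 199 had none. With overlap on the same strand, a probe set on an unlabelled part of the named transcript and a separate transcript cannot be told apart. The sources used here do not say whether the labelled cDNA kept its strand, so for pairs on opposite strands signal from the named gene and from an antisense transcript cannot be told apart either.

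**Figure D4:**
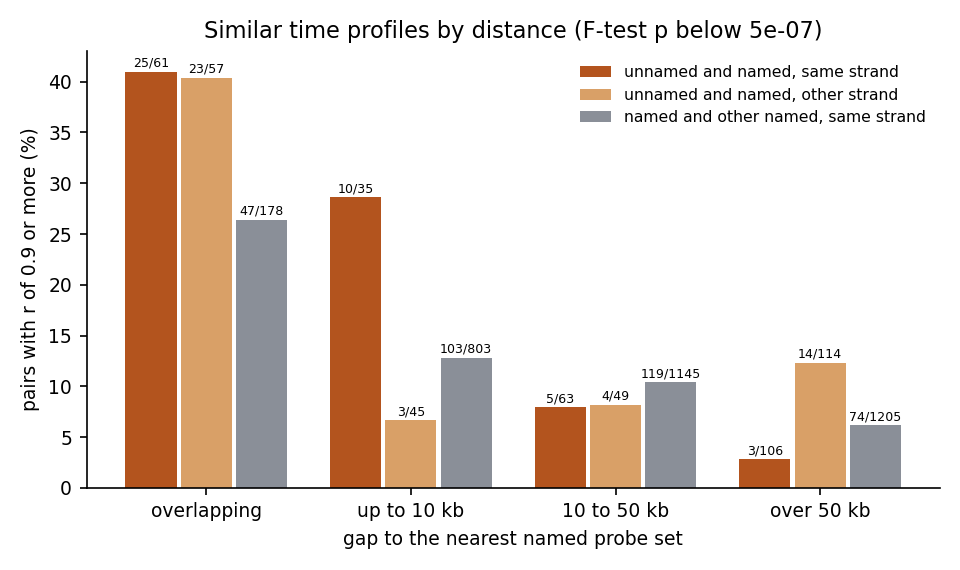
Percent of pairs with similar time profiles (r of 0.9 or more over 6 means and the same direction) by gap to the nearest named probe set, for unnamed probe sets past p 5e-07 on the same strand (brown) and the other strand (tan), and for named probe sets with another named one (grey), with counts above the bars. Overlapping unnamed pairs reach 41.0% and 40.4% on the 2 strands, and pairs up to 10 kb apart 28.6% on the same strand.

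Some similar pairs with rises are given as single examples. Inside Il1r1, the interleukin-1 receptor, 10922843 (chr9:46665547-46665844, plus strand) had means of 6.21, 6.61, 6.84, 7.47, 7.78 and 6.72. Its rise at 6 h was 1.56, beside 2.05 for Il1r1 (r = 0.98). In Nos2, the inducible nitric oxide synthase, 10736330 (150 bases, chr10:65425275-65425424) rose by 1.20 at 6 h from 5.53, beside 2.60 for Nos2 (r = 0.97). Probe set 10743964, 332 bases from the histone demethylase gene Kdm6b, rose by 1.03 at 6 h, beside 0.86 (r = 0.99). At 2 h, 10703662, 16041 bases from the inhibitory receptor gene Pirb, rose by 1.65, beside 1.59 for Pirb (r = 0.99). In Lyn, a kinase of immune cells, 10867479 rose by 0.80 at 6 h, beside 0.45 (r = 0.91). Across Plau, the urokinase gene, on the other strand, 10779028 rose by 1.45 at 2 h, beside 0.98 (r = 0.96). Across Vcan, a proteoglycan gene, 10812407 rose by 1.32 at 3 h, beside 2.37 (r = 0.92). The largest changes of these pairs pointed the same way by definition, and the unnamed probe set had the larger change in some pairs and the smaller in others. Apart from 10703662, the members of this paragraph were picked after their values were seen.

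Similar pairs with falls are given as single examples too, and those in and near Cd247, Itga4 and Itpr1 were picked after their values were seen. In Cd247, the zeta chain of the T cell receptor complex, 10765351 fell by 0.69 at 6 h, beside 0.97 for Cd247 (r = 0.99). Beside Itga4, an integrin subunit of lymphocyte adhesion, 10837170 fell by 1.55 at 3 h from a mean of 11.26, beside 0.99 (r = 0.94). Across Itpr1, a calcium channel gene, on the other strand, 10864550 fell by 0.80 at 6 h, beside 1.05 (r = 0.96). Not all T cell gene neighbours fell: 10800832 in the kinase gene Camk4 rose by 0.91 at 2 h (SE 0.11, FDR 1.88e-09) where Camk4 fell by 0.67. Of the 130 similar pairs within 50 kb on the same strand at FDR 0.05, 49 rose and 81 fell, where all 2377 unnamed probe sets past the F-test divided into 1468 rises and 909 falls.

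Falls outnumbered rises in the larger antigen receptor loci. These windows were set after the values were seen, from the outermost named receptor genes of each locus, and every unnamed probe set inside was kept. In the window of the T cell receptor alpha and delta genes (chr15:33155006-36667383) 49 of 58 unnamed probe sets fell over time and 1 rose, against a background of 24.1% with a fall and 31.3% with a rise as the largest change among all probe sets. There were 13 past 5e-07 (13.5% of all probe sets). Their median change went from -0.16 in the first hour through -0.35 and -0.32 (2 and 3 h) to -0.49 at 6 h, and was -0.29 at 24 h, beside -0.43 at 6 h for the 20 named receptor probe sets there, of which 16 fell. At 6 h, 49 were lower and 1 higher than at 0 h, against 19.3% and 22.5% of all probe sets. The segment 10780026 (chr15:33830313-33830906) was chosen as an example after the values were seen. Its means were 8.85, 8.46, 8.15, 8.20, 7.95 and 8.26, low from 2 h on, with a change of -0.90 at 6 h (SE 0.09, FDR 3.56e-11). Probe set 10783416, past 5e-07, matched a named variable segment 6499 bases away with r of 1.00, and fell by 0.56 against 0.26. The 58 hold 54 distinct sets of values, and variable segments are alike in sequence, so probe sets may read each other's transcripts and are not independent.

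In the immunoglobulin heavy chain window (chr6:147059437-151876524) 19 of 32 unnamed probe sets fell and 4 rose, with 9 past 5e-07, against 24.1%, 31.3% and 13.5% of all probe sets. Probe set 10892643 (chr6:151861825-151862298, minus strand) went from 8.65 to 6.70 at 3 h, a fall of 1.95 (SE 0.18, FDR 3.15e-12), and was 1.17 below 0 h on the log2 scale at 24 h. Probe set 10892493, over an Ighg probe set with r of 1.00, had means of 11.62, 11.06, 10.69, 10.50, 10.44 and 10.85. Next to the delta constant gene Igd, which marks naive B cells, 10892478 fell by 1.01 at 3 h where Igd fell by 2.09 (r = 0.99). Of the 39 in the kappa window the annotation places on chromosome 3, 25 fell and 4 rose. Of the 10 in the kappa window on chromosome 4, 4 fell and 1 rose. The lambda window differed in count, with 0 of 7 falling and 3 rising by the moderated F-test (limma), and 0 falling and 4 rising at an unadjusted p below 0.05 (0 and 3 with the unmoderated statistic), and in the small T cell receptor beta window 1 of 4 fell and 1 rose, which is near the background. The named receptor probe sets of these windows went down, with a median change of -0.59 at 6 h in the lambda window (1 of 2 fell) and of -0.69 in the T cell receptor beta window (2 of 2 fell). Marker genes moved in the same samples: the median change of the named B cell list was -1.74 at 2 h, of the T cell list -1.09 at 6 h and of the neutrophil list 1.33 at 2 h. In whole blood, fewer cells of a type and less RNA per cell cannot be told apart, and the part of cell counts in these falls was not tested.

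**Figure D5:**
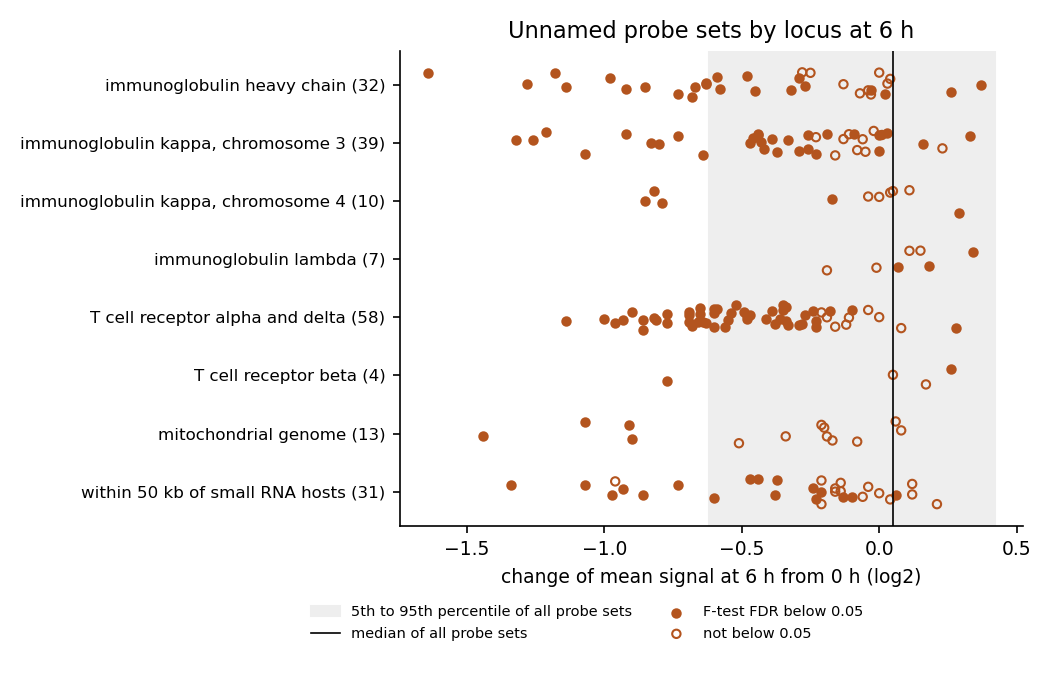
Change of mean log2 signal from 0 h to 6 h of each unnamed probe set in 7 loci and near host genes of small RNAs, filled where the F-test FDR was below 0.05. The grey band is the 5th to 95th percentile of all probe sets (-0.62 to 0.42) and the line their median (0.05), and 49 of the 58 T cell receptor alpha and delta probe sets were called lower than at 0 h.

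In and near host genes of small RNAs, falls also outnumbered rises. Of 31 within 50 kb of such a host on the same strand, 16 fell and 1 rose (24.1% and 31.3% of all probe sets). The 5 past 5e-07 are close to the background of 13.5%. The median change of the 31 was -0.37 at 3 h against 0.07 for all probe sets. Within Nop56, a core protein of small nucleolar ribonucleoproteins, the 70-base probe set 10839870 had means of 4.98, 4.58, 4.18, 4.05, 3.64 and 4.68. It fell by 1.34 at 6 h (SE 0.17, FDR 1.26e-08), beside 1.10 for Nop56 (r = 0.97), and 10839872 in the same gene fell by 1.10 at 3 h. Beside Gas5, a noncoding host of small nucleolar RNAs, 10765042 fell by 1.13 at 3 h (r = 0.97) and 10765038 by 0.95 at 2 h. The named probe sets of the host list also fell, 17 of 20.

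The mitochondrial genome held 13 unnamed probe sets, most of them as short as a transfer RNA, lying between the protein genes. By the moderated F-test (limma) 4 fell at FDR 0.05 and 0 rose, against the background of 24.1% and 31.3%, and 6 fell and 0 rose at an unadjusted p below 0.05 (4 and 0 at FDR 0.05 with the unmoderated statistic). Probe set 10930620 (69 bases, minus strand, next to ND6, a subunit of respiratory complex I) went from 8.00 to 6.56 at 6 h, a fall of 1.44 (SE 0.19, FDR 3.18e-08), beside 0.57 for ND6. Probe set 10930588 (68 bases, plus strand, next to ND3) fell by 1.07 at 6 h and was still 1.07 lower on the log2 scale at 24 h. The other 9 did not pass the test, with changes at 6 h from -0.51 to 0.08.

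Few unnamed probe sets lay near genes of the remaining lists. Within 50 kb on the same strand, 3 lay near B cell genes (1 fell), 7 near T cell genes (3 fell, 1 rose), 7 near natural killer and cytotoxic genes (2 fell, 3 rose), 4 near neutrophil genes (2 rose), 3 near monocyte genes (1 fell), 7 near erythroid genes (2 fell, 1 rose), 2 near platelet genes (1 fell), 1 near an interferon gene (it fell), 3 near glucocorticoid response genes (1 rose), 1 near an immediate early gene (not called) and 6 near circadian genes (3 fell, 1 rose). Against the background of 31.3% and 24.1%, such numbers describe single probe sets. Examples are 10824698, 13972 bases from the neutrophil gene S100a9, up by 0.68 at 6 h beside 1.51 for S100a9 (r = 0.89), and 10801302, which lies across the glucocorticoid receptor gene Nr3c1 and rose by 0.36 at 6 h while Nr3c1 changed by -0.66 (r = -0.84). Probe set 10876313, 42972 bases from the B cell receptor gene Cd72 but 3838 from Arhgef39 on its strand, changed by -0.88 at 1 h, and 10905528, which lies 36905 bases from the growth factor gene Pdgfb of platelets but nearer, 27374 bases, to the ribosomal protein gene Rpl3, changed by -0.69 at 1 h. Probe set 10744141, 1582 bases from the macrophage marker gene Cd68 but inside the translation factor gene Eif4a1 on the same strand, changed by -0.44 at 3 h, a call (FDR 0.0415) that was lost with the unmoderated statistic (0.0618) and without the 24 h samples (0.0515). Both are also counted near host genes of small RNAs. Probe set 10726754, 42649 bases from the interferon regulator gene Irf7 but 1617 from Mir210, changed by -0.15 at 6 h.

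Some unnamed probe sets carried a named gene's values exactly. In 70 sets of probe sets all 6 means and SDs were equal, and 138 unnamed probe sets were in them, 22 of them together with a named one. Probe set 10803671 on chromosome 18 had the same values as Creb1 on chromosome 9, with a rise of 0.56 at 6 h, and 10719074 on chromosome 1 the same as Kpnb1 on chromosome 10, with a fall of 0.80 at 6 h. Probe sets 10791262 and 10890921 equalled Ccdc94, and 10818571 equalled Taf1d. For these the annotated place of the unnamed probe set and the named gene cannot be told apart as the source of signal. Counted once each, the 5514 unnamed probe sets held 5446 distinct sets of values. In pairs such as 10837520 and LOC100362999 on chromosome 3, with a rise of 0.69 at 2 h beside 0.67, or 10729816 and LOC100363637 on chromosome 1, with a fall of 0.43 at 3 h beside 0.51, the overlapping values were near equal but not the same.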

How the data were processed

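Blood RNA from the PAXgene kit was amplified, hybridised to Affymetrix RaGene 1.0 ST arrays and summarised by the authors with RMA to log2 values per probe set, annotated on rn5. Their deposited log2 means and SDs per time point (8 arrays each, 7 at 6 h) were used. The 47 single-array columns are named by a running number that no label repeats. Assigning them to rats and times by their order was not done, and they were not used. The authors' fold change, p-value, FDR and F-test columns hold their own comparisons and were not used.

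From the means, SDs and array numbers, moderated F- and t-statistics after limma (version 3.58.1, R 4.3.3, Python 3.11.15) were computed over all 27596 probe sets (residual degrees of freedom 41, prior 5.707), with Benjamini-Hochberg FDR below 0.05 as the call, two-sided. The method was checked against limma and on simulated data. Arrays were treated as independent although the rats are the same at each time point, so p-values rest on the spread between rats. "Fell" and "rose" give the sign of the largest change of a probe set past the F-test. Neighbours were the nearest named probe set on each strand, within 50 kb. The number of arrays limits the precision.

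The whole unnamed set was defined by the annotation alone. The members reported one by one and the 12 gene lists were chosen with earlier results of these data known. Members named were the 10 with the lowest F-test p, the 2 largest rises and falls at each time, the 5 brightest, 2 rises and 2 falls called at 24 h alone, the largest change near each list and the 5 highest r past 5e-07. Others were named after their values were seen. Alternatives were an unmoderated statistic, a trended robust prior, centring, quantile normalization, a filter on the lowest 25% by signal, leaving out 24 h, Bonferroni, other windows and other measures of likeness. Some members and marker genes are not reported here by name.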

Additional observations from a re-analysis of the deposited data

How the results depend on the processing

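Of 123 alternative values of the counts and levels, 119 stayed within 1.5 times the value given, or within 1 SD for the level. Those that moved were the number changed over time by a Bonferroni-adjusted p (330 in place of 2377), the numbers higher at 1 h (505 in place of 971) and at 24 h (410 in place of 765) with centred means, and the number of similar pairs at an r of 0.8 (250 in place of 130). The number past 5e-07 ran from 227 (unmoderated) to 274 (centred) around 265, and was 228 without the 24 h samples. Falls in the T cell receptor alpha and delta window ran from 45, with equal values counted once, to 51. For the 40 members named by rule, 222 of 227 alternative values kept direction and side of the threshold, and none reversed. Probe set 10744141 lost its call with the unmoderated statistic (FDR 0.0618) and without 24 h (0.0515), and 10855555 gained one, at a change of -0.12 (FDR 0.0140 to 0.0412) or -0.15 with centred means. The windows of the antigen receptor loci and their alternatives were chosen after seeing the data. No paired analysis was possible because the columns of means and SDs carry no rat and the single-array columns, named by a running number only, were not assigned to rats by their order, so leaving out single replicates and the replicate block were not run. The 41.4% of unnamed probe sets that lie among the dimmest 25% limit what small changes can be seen.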
